A study of Homo sapiens with 6 samples.

Results

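The genes described here are 10 feedback inhibitors and delayed output genes of the ERK pathway: the MAPK phosphatases DUSP4, DUSP5 and DUSP6, the Sprouty genes SPRY1, SPRY2 and SPRY4, the Spred genes SPRED1 and SPRED2, and the transcription factor genes ETV4 and ETV5. They were chosen by symbol, with earlier results of these data known. They make up 10 of 61860 genes in the count table, and all 10 had enough counts to be tested. The RNA came from A498, an established line of human renal carcinoma cells, and was sequenced in 6 libraries. The 3 PTPRZ_Si libraries carry the label of a PTPRZ1 knockdown by siRNA, and the 3 PTPRZ_nc libraries that of the control for the knockdown, by plasmid. Both groups share the treatment label "transfection infection". The agents named for the groups therefore differ, and the target and the agent cannot be told apart as sources of any difference below. PTPRZ1 encodes a receptor protein tyrosine phosphatase, and the series title concerns its part in how clear cell renal carcinoma responds to kinase inhibitors and PD-1 blockade.

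Growth factor receptors signal through RAS, RAF and MEK to ERK, a kinase that enters the nucleus and raises the transcription of immediate early genes and, later, of its own inhibitors. DUSP proteins remove phosphates from ERK and its relatives, Sprouty proteins act between the receptor and RAF, and Spred proteins bring the RAS inactivator neurofibromin to the membrane. ETV4 and ETV5 are ETS factors of the PEA3 group, and the repressor CIC holds their genes down until ERK signalling relieves it. The messages of these genes are used in many cell types as a readout of ERK output, although the signal itself lies in phosphorylated proteins, which were not measured here.

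Total counts in genes ran from 14407846 to 21469746 in the PTPRZ_Si libraries and from 13726908 to 18609477 in the PTPRZ_nc libraries. PTPRZ1 had 0 counts in each of the 6 libraries, which allows up to 0.0527 CPM (counts relative to the library's total, scaled by TMM) over the PTPRZ_Si group and up to 0.0607 CPM over the PTPRZ_nc group at 3 counts, counting error only. The knockdown could therefore not be checked by its target, and all directions rest on the labels. The 9 markers of A498 and its renal tubule origin were all counted, with summed levels of 3280 to 3390 CPM in PTPRZ_Si and 3220 to 3250 CPM in PTPRZ_nc. These sums rest mostly on KRT8 and VIM, and single markers were not level: 5 of the 9 were called higher, 2 lower and 2 not called by edgeR's test. CDH6 (log2 fold change 1.06, SE 0.0637), PAX8 (0.83, SE 0.0483), PAX2, KRT8 and KRT18 rose, VIM (-0.58, SE 0.0388) and LHX1 (-1.05, SE 0.315) fell, and CA9 and NNMT did not pass. The leukocyte markers PTPRC and CD3E, the endothelial marker CDH5 and the fibroblast marker LUM had 0 counts. Summed fibroblast and smooth muscle markers, 4 of 5 of them under 1 CPM, were at 21.7 to 23.6 CPM in PTPRZ_Si and 31.6 to 41.7 CPM in PTPRZ_nc, and those of hepatocytes, 3 of 4 under 1 CPM, at 4.11 to 4.9 CPM in PTPRZ_Si and 4.97 to 7.3 CPM in PTPRZ_nc. The sums for leukocytes, 5 of 5 under 1 CPM, were 0.912 to 1.46 CPM in PTPRZ_Si and 0.587 to 1.02 CPM in PTPRZ_nc, and for endothelium, 3 of 4 under 1 CPM, 1.87 to 2.58 CPM in PTPRZ_Si and 1.23 to 1.61 CPM in PTPRZ_nc. Their part in the results was not tested. The labels name no separate cultures, and the p-values rest on the spread among 3 libraries a group, part or all of which may be technical.

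In the PTPRZ_Si libraries DUSP5, SPRED1, SPRY4, ETV4 and ETV5 rose, by 11.4% to 30.8%, and DUSP4, DUSP6, SPRY1, SPRY2 and SPRED2 did not pass the test (edgeR's quasi-likelihood test with Benjamini-Hochberg adjustment over 15476 genes, threshold 0.05). That is 5 of 10 called higher and 0 called lower, where 14.0% of all tested genes were called higher and 13.4% lower. With a filter at a mean of 5 CPM, which takes out genes with few counts, 6 of the 10 were called higher, as were 2125 of 11014 tested genes. The median log2 fold change of the 10 was 0.29, against 0.00 over all tested genes. The 10 were chosen with earlier results of these data known, so the values of all genes beside them are a description and no test. All 10 fitted changes were above 0, and 7 of the 10 had every PTPRZ_Si library above every control, where 40.8% of all tested genes had groups that did not overlap and 20.8% did so with PTPRZ_Si higher. The count of 5 fell to 3 without PTPRZ_Si replicate 1 and to 2 without PTPRZ_Si replicate 3, and was 4 or 5 without any other single library. In bulk RNA, more cells expressing a gene and more RNA per cell cannot be told apart.

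**Figure D1:**
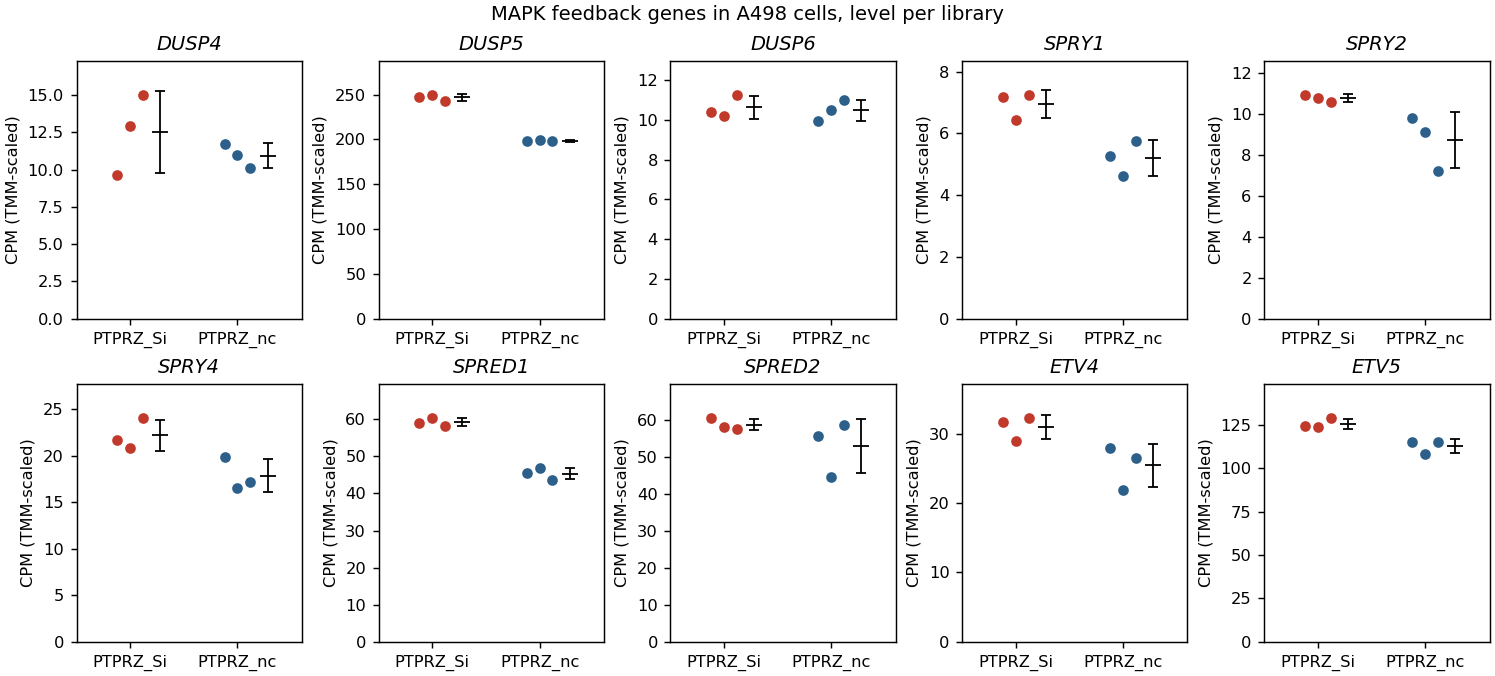
Level of each feedback gene in every library (y axis, CPM scaled by TMM, from 0), with PTPRZ_Si to the left of PTPRZ_nc. Points are libraries, and the bar beside them gives the mean with its SD (n = 3). The groups are apart for 7 genes and overlap for DUSP4, DUSP6 and SPRED2.

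DUSP5, a nuclear phosphatase that acts on ERK alone, was both the most abundant feedback gene and the one with the smallest p. It lies on chromosome 10 from 110497838 to 110511544 on the plus strand (GRCh38, GENCODE 29). Its level was 248, 249.9 and 243 CPM in PTPRZ_Si replicates 1, 2 and 3, against 198, 199 and 198 CPM in PTPRZ_nc replicates 1, 2 and 3. The libraries of each group lay close together and far from the other group. The spread (SD over mean) was 1.44% in PTPRZ_Si and 0.373% in PTPRZ_nc, where counting error alone gives 1.47% and 1.75%. The control spread thus lies below counting error and is no measure of how precise the level is. The log2 fold change of DUSP5 was 0.32 (SE 0.040, 95% interval 0.23 to 0.40, edgeR adjusted p = 1.45e-05), a rise of 24.5%. It passed under all 14 alternatives of scaling, filter, test, block or left-out library.

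DUSP6, the cytoplasmic ERK phosphatase that is often read as an ERK reporter, was nearly level between the groups. It had 10.4, 10.2 and 11.3 CPM in PTPRZ_Si, against 9.93, 10.5 and 10.99 CPM in PTPRZ_nc, and the groups overlapped. The log2 fold change was 0.02 with a 95% interval of -0.21 to 0.26 (edgeR adjusted p = 0.917), so the rise seen in DUSP5 lies outside it and a rise as small as that of ETV5 lies within it. The antisense gene AC024909.2 shares 1875 of the 4632 exon bases of DUSP6 in GENCODE 29. The counting used no strand, so reads in the shared bases cannot be told apart. Whether such reads were dropped or counted was not tested, and the CPM, TPM and family share of DUSP6 may be too low. AC024909.2 had 3 to 6 counts in the PTPRZ_Si libraries and 1 to 2 in the PTPRZ_nc libraries.

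DUSP4, a nuclear phosphatase of ERK and JNK, varied most among the PTPRZ_Si libraries. It had 9.62, 12.9 and 15.0 CPM there, against 11.7, 10.96 and 10.1 CPM in PTPRZ_nc. PTPRZ_Si replicate 1 lay below every control and the other two above them. The coefficient of variation in PTPRZ_Si was 21.7%, where counting error alone gives 6.42%. The log2 fold change of 0.21 (95% interval -0.08 to 0.51) did not pass (edgeR adjusted p = 0.284), and ranged from 0.06 without PTPRZ_Si replicate 3 to 0.35 without PTPRZ_Si replicate 1.

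The share of each phosphatase within its family was compared as well. DUSP6 made up 2.28%, 2.22% and 2.50% of the summed TPM (counts per exon length, scaled to a fixed total in each library) of DUSP4, DUSP5 and DUSP6 in PTPRZ_Si, and 2.70%, 2.84% and 2.99% in PTPRZ_nc. DUSP5 took 95.9% ± 0.502 in PTPRZ_Si and 95.3% ± 0.00308 in PTPRZ_nc (SD, n = 3 each). The rest of the sum is DUSP4 and DUSP6, whose counting errors in PTPRZ_nc were 7.45% and 7.6%. The close agreement of the controls is therefore no measure of how precise their share is. For DUSP5 the gap was narrow, 95.4% in PTPRZ_Si replicate 3 against 95.3% in each control. For both DUSP5 and DUSP6 the groups did not overlap, and the exact permutation test (2-sided) gave p = 0.1. This is the smallest p that 3 against 3 allows. It was 0.4 after adjustment over the 8 shares tested in the DUSP, SPRY, SPRED and ETV families. The shares of DUSP5 and DUSP6 are not separate results. DUSP5 makes up most of the sum, so its rise by itself lowers the share of a level DUSP6. The other 6 shares, of DUSP4, SPRY1, SPRY2, SPRY4, SPRED1 and ETV4 within their families, had exact p-values of 0.2 to 1.

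The Sprouty genes, at low to moderate levels, had 1 of 3 called. SPRY4 (chromosome 5 from 142310427 to 142326455, minus strand), which restrains RAF activation, had 21.7, 20.9 and 24.1 CPM in PTPRZ_Si, against 19.9, 16.5 and 17.2 CPM in PTPRZ_nc. Every PTPRZ_Si library lay above every control, by a narrow margin over PTPRZ_nc replicate 1. This is a log2 fold change of 0.31 with its interval apart from 0 (SE 0.0943, 95% interval 0.12 to 0.51, edgeR adjusted p = 0.0192). It did not pass without PTPRZ_Si replicate 3 or PTPRZ_nc replicate 3 (edgeR adjusted p = 0.12 and 0.0692), and over all alternatives its adjusted p ran from 0.0109 to 0.12.

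SPRY1, an inhibitor of receptor signalling known from kidney development, had the largest fitted change of the 10 and the fewest counts, 63 to 155 per library. Its level was 7.18, 6.43 and 7.25 CPM in PTPRZ_Si and 5.26, 4.60 and 5.76 CPM in PTPRZ_nc. The groups did not overlap, but the log2 fold change of 0.41 (95% interval 0.09 to 0.73) missed the threshold (edgeR adjusted p = 0.0547). It passed under a filter at a mean of 5 CPM (edgeR adjusted p = 0.0397), and its adjusted p over all alternatives reached 0.166. The spread of SPRY1 among controls, 11.1%, was close to the 10.7% that counting alone gives.

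SPRY2, which binds the ubiquitin ligase CBL and the adaptor GRB2, had 10.9, 10.8 and 10.6 CPM in PTPRZ_Si, against 9.81, 9.14 and 7.20 CPM in PTPRZ_nc. PTPRZ_nc replicate 3 was the low library, and the groups were apart. The log2 fold change of 0.31 (95% interval 0.04 to 0.58) did not pass (edgeR adjusted p = 0.0896), and it was 0.18 without PTPRZ_nc replicate 3. The shares of the 3 genes within the family overlapped between the groups, with SPRY2 at 40.9% ± 1.93 in PTPRZ_Si and 41.5% ± 4.21 in PTPRZ_nc (SD, n = 3 each).

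Promoter windows of 300 bases, from 250 before to 50 after a RefSeq start (GRCh38.p14), were at hand for 6 of the genes: DUSP6, SPRY1, SPRY2, SPRY4, SPRED1 and SPRED2, with 10 windows in all. Of these, 3 are shown to set 2 genes that rose beside 1 that did not pass. Capitals mark matches, on either strand, to the EGR letters GCGNGGGCG or to the CRE core TGACG. The ETS letters CCGGAAG, the AP-1 letters TGANTCA and the CIC letters TGAATGNA were searched too and match in none of these 3 windows.
SPRY4, chr5:142324198-142324497, minus strand: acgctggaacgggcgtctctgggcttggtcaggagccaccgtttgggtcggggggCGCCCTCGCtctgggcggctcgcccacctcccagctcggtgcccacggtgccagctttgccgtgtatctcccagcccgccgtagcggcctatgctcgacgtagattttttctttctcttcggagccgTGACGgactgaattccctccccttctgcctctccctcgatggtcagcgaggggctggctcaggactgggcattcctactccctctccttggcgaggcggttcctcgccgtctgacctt
SPRED1, chr15:38252586-38252885, plus strand: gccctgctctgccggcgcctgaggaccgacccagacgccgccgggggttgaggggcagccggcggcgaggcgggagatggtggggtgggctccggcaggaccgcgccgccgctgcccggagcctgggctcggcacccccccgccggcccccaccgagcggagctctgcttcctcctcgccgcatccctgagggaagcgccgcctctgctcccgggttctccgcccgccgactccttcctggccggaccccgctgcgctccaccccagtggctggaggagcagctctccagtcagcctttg
DUSP6, chr12:89352452-89352751, minus strand: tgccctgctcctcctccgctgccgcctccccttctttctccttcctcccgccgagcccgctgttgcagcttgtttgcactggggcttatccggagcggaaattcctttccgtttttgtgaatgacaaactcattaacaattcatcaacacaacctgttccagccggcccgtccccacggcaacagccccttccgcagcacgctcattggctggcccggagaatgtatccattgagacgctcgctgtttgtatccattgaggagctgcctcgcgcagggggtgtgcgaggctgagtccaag
The window of SPRY4 held 1 EGR match and 1 CRE core, and those of SPRED1 and DUSP6 held no match to any of the 5 strings of letters. Other spellings of these sites, those of CIC among them, were not searched, so a window without a match may still hold a site. The EGR letters were in 3 of the 10 windows, 1 each of SPRY1, SPRY2 and SPRY4, and in 9.41% of 34943 windows of all genes. The CRE core was in 3 windows against 24.5% of all, the ETS letters in 1 against 10.2%, the AP-1 letters in 1 against 7.72%, and the CIC letters in 0 against 3.85%. These matches are letters in a window and no measure of binding. The windows also differ in base composition, with 76.3% G and C in SPRED1, 65.0% in SPRY4 and 58.3% in DUSP6.

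SPRED1 (chromosome 15 from 38252326 to 38357249, plus strand), the partner of neurofibromin, rose most among the called genes. It had 59.1, 60.4 and 58.2 CPM in PTPRZ_Si, against 45.4, 46.8 and 43.7 CPM in PTPRZ_nc, with a wide gap between the groups. On the log2 scale the change was 0.39 (SE 0.0587, 95% interval 0.26 to 0.51, edgeR adjusted p = 9.52e-05), a rise of 30.8%, and it passed under all 14 alternatives. SPRED2, its relative, had 60.6, 58.1 and 57.5 CPM in PTPRZ_Si, against 55.6, 44.7 and 58.6 CPM in PTPRZ_nc. PTPRZ_nc replicate 2 was low and replicate 3 lay within the PTPRZ_Si range. For SPRED2 the fitted log2 value was 0.14 (95% interval -0.03 to 0.31, edgeR adjusted p = 0.207), and it was 0.04 without PTPRZ_nc replicate 2.

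ETV5 (chromosome 3 from 186046308 to 186110318, minus strand) had 124, 124 and 129 CPM in PTPRZ_Si, against 115, 108 and 115 CPM in PTPRZ_nc. The groups were apart, and the change was the smallest of the 5 called, 0.16 on the log2 scale (SE 0.0477, 95% interval 0.05 to 0.26, edgeR adjusted p = 0.0217). ETV4 (chromosome 17 from 43527844 to 43579620, minus strand) had 31.7, 28.99 and 32.3 CPM in PTPRZ_Si, against 27.9, 21.9 and 26.5 CPM in PTPRZ_nc. PTPRZ_nc replicate 2 was the lowest library of all, and the lowest PTPRZ_Si library lay just above the highest control. On the log2 scale it rose by 0.28 (SE 0.0883, 95% interval 0.09 to 0.46, edgeR adjusted p = 0.0264).

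Both ETV calls depended on single libraries. Without PTPRZ_Si replicate 1 or 3, ETV5 did not pass (edgeR adjusted p = 0.0637 and 0.116, range over all alternatives 0.0125 to 0.116). ETV4 did not pass without PTPRZ_Si replicate 1, PTPRZ_Si replicate 3 or PTPRZ_nc replicate 2 (edgeR adjusted p = 0.088, 0.119 and 0.0918) nor with DESeq2 (adjusted p = 0.0501), over a range of 0.012 to 0.119. Without PTPRZ_nc replicate 2 its log2 fold change was 0.19. Reads of these genes can overlap others in GENCODE 29: ETV4 shares 68 of 3607 exon bases with DHX8 on the opposite strand, and ETV5 shares 164 of 5802 with DGKG on the same strand.

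**Figure D2:**
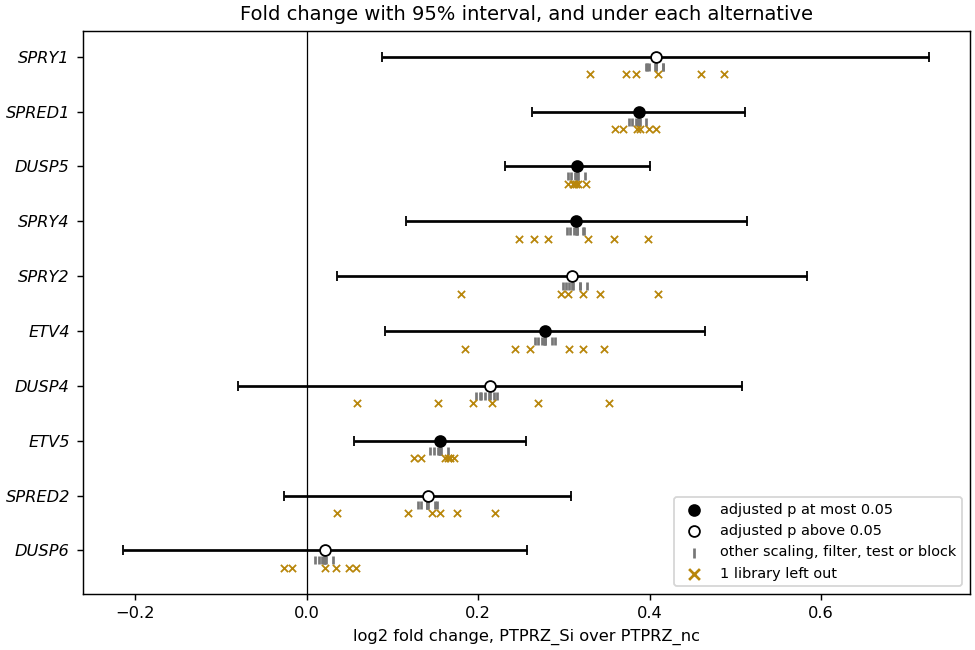
Log2 fold change of PTPRZ_Si over PTPRZ_nc (x axis) for each feedback gene (y axis), with its 95% interval. Filled points have an adjusted p of at most 0.05. Grey ticks are the values under other scaling, filter, test or block, and crosses those with 1 library left out. The crosses stay close to the point for DUSP5 and SPRED1 and spread widest for DUSP4, from 0.06 to 0.35.

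Per exon length, the order of the genes was nearly shared by the groups. DUSP5 led at 412 ± 3.8 TPM in PTPRZ_Si and 334 ± 1.55 TPM in PTPRZ_nc (SD, n = 3 each), and ETV5 followed at 94.5 ± 2.91 TPM and 85.6 ± 3.38 TPM. SPRED2, ETV4 and SPRED1 came next, at 49.8, 37.5 and 31.3 TPM in PTPRZ_Si and 45.3, 31.0 and 24.2 TPM in PTPRZ_nc. SPRY2, SPRY4 and DUSP6 stood at 15.5, 14.8 and 10.0 TPM in PTPRZ_Si and 12.6, 12 and 9.96 TPM in PTPRZ_nc. The last places were held by SPRY1 and DUSP4, at 7.66 and 7.53 TPM in PTPRZ_Si and 5.79 and 6.63 TPM in PTPRZ_nc. In either group the libraries of SPRY2 and SPRY4 overlapped, as did those of SPRY1 and DUSP4, and all other neighbours in the order were apart.

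**Figure D3:**
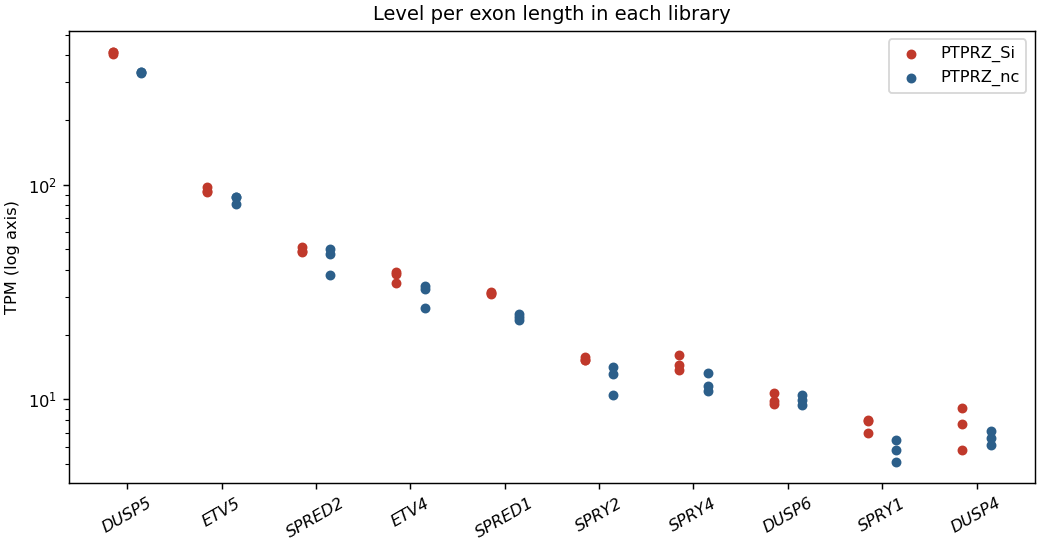
Level per exon length of each feedback gene (y axis, TPM on a log axis) in every library, ordered by the mean in PTPRZ_Si, with PTPRZ_Si to the left of PTPRZ_nc. DUSP5 stands at 412 TPM in PTPRZ_Si and 334 TPM in PTPRZ_nc, above all other genes, and the lowest places belong to SPRY1 and DUSP4.

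Immediate early genes, the first transcripts that ERK and related signals raise, were mostly called lower or not called. Of 15 tested, 6 fell, 1 rose and 8 did not pass, with a median log2 fold change of -0.12. EGR1, the zinc finger factor whose letters were searched above, fell to 0.822 ± 0.13 CPM in PTPRZ_Si, against 12.7 ± 1.43 CPM in PTPRZ_nc (SD, n = 3 each, log2 fold change -3.96, edgeR adjusted p = 2.43e-10). JUN, a subunit of AP-1, fell to 318 ± 10.4 CPM in PTPRZ_Si, against 500.5 ± 37.1 CPM in PTPRZ_nc. KLF10, a zinc finger factor, also fell (log2 fold change -0.54, SE 0.0518), while JUND, another AP-1 subunit, rose (0.52, SE 0.0623). FOSL2, an abundant AP-1 subunit, did not pass (-0.08).

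Other delayed ERK outputs moved in both directions. Of 16 tested, 4 rose, 5 fell and 7 did not pass, with a median log2 fold change of -0.01. The Eph receptor EPHA4 rose to 30.3 ± 2.68 CPM in PTPRZ_Si, against 12.7 ± 0.83 CPM in PTPRZ_nc (SD, n = 3 each). The pseudokinase TRIB2 (log2 fold change 0.47, SE 0.0644) and the cyclin CCND1 (0.25, SE 0.0371) rose as well. The survival gene MCL1 (-0.31, SE 0.0533) and the urokinase receptor PLAUR (-0.35, SE 0.0636) fell. PHLDA1, a regulator of apoptosis, did not pass (-0.05).

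Of the other dual-specificity MAPK phosphatases, 1 of 6 tested rose, 0 fell and 5 did not pass. DUSP7, a cytoplasmic ERK phosphatase like DUSP6, rose to 23.0 ± 0.846 CPM in PTPRZ_Si, against 19.0 ± 1.62 CPM in PTPRZ_nc (SD, n = 3 each, log2 fold change 0.28, edgeR adjusted p = 0.0236). DUSP1, the abundant nuclear phosphatase of p38, JNK and ERK, did not pass (-0.04, 95% interval -0.15 to 0.06). DUSP8 had 38 counts over the 6 libraries and was not tested.

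Among further inhibitors of receptors and RAS, 2 of 12 tested rose, 3 fell and 7 did not pass. ERRFI1, which blocks the kinase domain of the EGF receptor, fell to 185 ± 4.52 CPM in PTPRZ_Si, against 318 ± 9.11 CPM in PTPRZ_nc (SD, n = 3 each, log2 fold change -0.78, edgeR adjusted p = 6.14e-10). IL17RD, an inhibitor of FGF receptor signalling (-0.43, SE 0.142), and the RAS GTPase activator RASA2 (-0.31, SE 0.0979) fell as well. SOCS4, an adaptor of the SOCS family, rose to 42.2 ± 0.98 CPM in PTPRZ_Si, against 24.9 ± 2.05 CPM in PTPRZ_nc, and SPSB1, a ligase adaptor that is no Sprouty protein, rose by a log2 fold change of 0.25 (SE 0.0565). The ubiquitin ligase CBL did not pass (-0.09). SPRED3, the remaining Spred gene, was at 9.24 CPM in PTPRZ_Si and 9.27 CPM in PTPRZ_nc (log2 fold change 0.01, edgeR adjusted p = 0.981). SPRY3, with 20 counts over the 6 libraries, was not tested.

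The ETS factors, the wider family of ETV4 and ETV5, were listed with CIC and its partners ATXN1 and ATXN1L. Of 17 tested, 8 rose, 4 fell and 5 did not pass, with a median log2 fold change of 0.11. ETV1, the third PEA3 factor, rose by 0.27 on the log2 scale (SE 0.0632, edgeR adjusted p = 0.00416). ELK1 (0.35, SE 0.0815), ELK3 (0.33, SE 0.0721) and ETV3 (0.32, SE 0.0682), of which ELK1 and ELK3 are direct ERK targets that work with SRF, rose by amounts near those of ETV4. ETS1 fell to 88.3 ± 4.51 CPM in PTPRZ_Si, against 157.5 ± 4.57 CPM in PTPRZ_nc (SD, n = 3 each), and ETS2 (-0.47, SE 0.0487) and ELF4 (-0.18, SE 0.0486) fell. CIC did not pass (0.10, 95% interval -0.00 to 0.20). ETV1, like SPRED3, SPRY3 and DUSP8, was named for its family or role after values were seen.

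**Figure D4:**
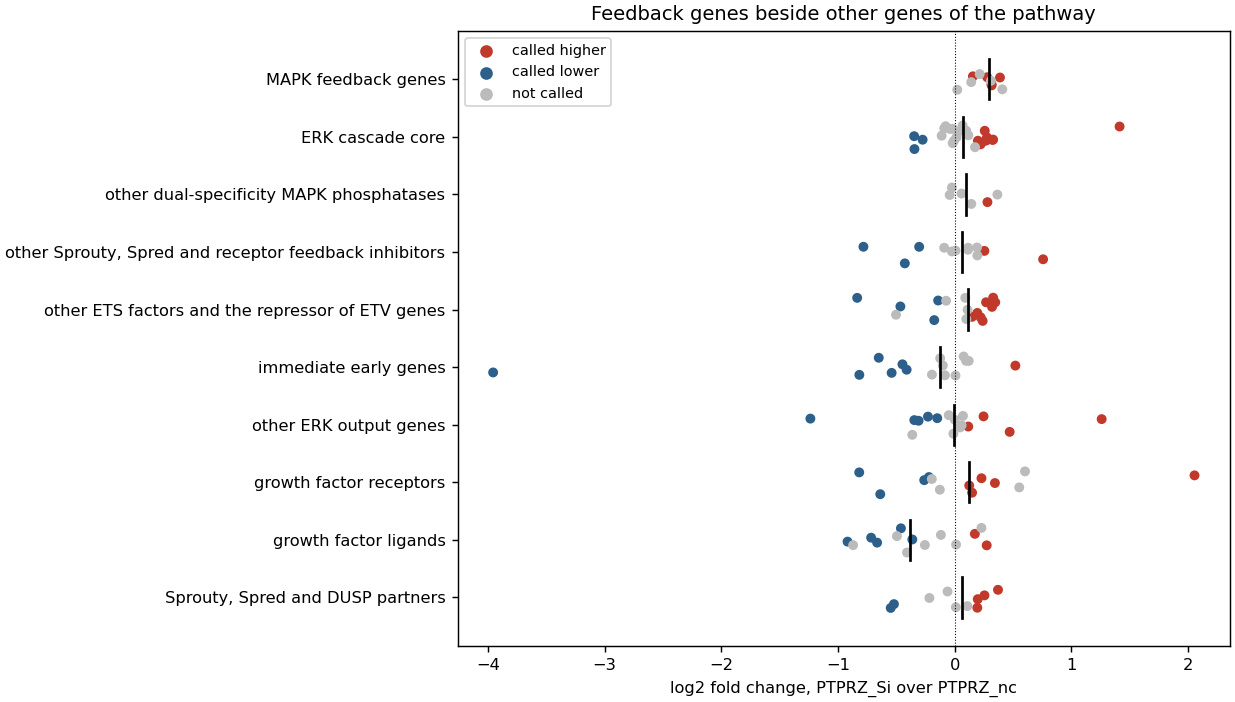
Log2 fold change of PTPRZ_Si over PTPRZ_nc (x axis) of each tested gene, by list (y axis). Red points were called higher, blue points lower, and grey points were not called, and black bars are medians. The median is 0.29 for the feedback genes and -0.39 for the growth factor ligands, and EGR1 is the point at -3.96.

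Upstream, the core of the cascade from adaptors to ERK had 9 of 25 tested genes higher, 3 lower and 13 not passed, with a median log2 fold change of 0.07. The phosphatase PTPN11, which promotes RAS activation, rose to 225 ± 5.56 CPM in PTPRZ_Si, against 193 ± 6.09 CPM in PTPRZ_nc (SD, n = 3 each). The RAS relative RRAS2 (0.33, SE 0.0453) and the RAF activator SHOC2 (0.26, SE 0.0502) rose. MAP2K1, which encodes MEK1, fell to 51.8 ± 2.99 CPM in PTPRZ_Si, against 65.6 ± 1.47 CPM in PTPRZ_nc, and RASA1, a RAS inactivator (-0.35, SE 0.0643), and NRAS (-0.28, SE 0.0551) fell. The adaptor SHC1 did not pass (0.02).

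Growth factor ligands had 5 of 14 tested genes lower, 2 higher and 7 not passed, with a median log2 fold change of -0.39. TGFA, a ligand of the EGF receptor, fell to 511 ± 5.26 CPM in PTPRZ_Si, against 811 ± 3.25 CPM in PTPRZ_nc (SD, n = 3 each, log2 fold change -0.67, edgeR adjusted p = 3.81e-10). VEGFA (-0.36, SE 0.0371) and PDGFB (-0.92, SE 0.166) fell. PDGFA (0.27, SE 0.0878) and NRG1 (0.17, SE 0.054) rose, and FGF2 did not pass (0.01).

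Growth factor receptors had 5 of 13 tested genes higher, 4 lower and 4 not passed, with a median log2 fold change of 0.12. EGFR fell to 417 ± 6.11 CPM in PTPRZ_Si, against 499.5 ± 17.1 CPM in PTPRZ_nc (SD, n = 3 each), AXL to 194.5 ± 7.39 CPM in PTPRZ_Si, against 343 ± 1.93 CPM in PTPRZ_nc, and FGFR3 fell by 0.64 on the log2 scale. FGFR4 rose to 135 ± 4.22 CPM in PTPRZ_Si, against 106 ± 7.07 CPM in PTPRZ_nc, and MET by a log2 fold change of 0.12 (SE 0.0346). NTRK2, a neurotrophin receptor with few counts, rose, at 1.93 ± 0.268 CPM in PTPRZ_Si and 0.46 ± 0.0651 CPM in PTPRZ_nc. IGF1R did not pass (-0.13).

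Proteins that bind or modify Sprouty, Spred and DUSP proteins had 4 of 10 genes higher, 2 lower and 4 not passed, with a median log2 fold change of 0.06. NEDD4, a ubiquitin ligase that marks SPRY2 for degradation, fell to 153 ± 3.01 CPM in PTPRZ_Si, against 224 ± 12.9 CPM in PTPRZ_nc (SD, n = 3 each). CAV1, caveolin, which binds Sprouty and Spred proteins, fell to 299 ± 17.4 CPM in PTPRZ_Si, against 428.5 ± 37 CPM in PTPRZ_nc. CSNK2A1, a catalytic subunit of casein kinase 2 (0.37, SE 0.0505), the kinase DYRK1A (0.25, SE 0.0603) and TESK1, a kinase bound by Sprouty and Spred proteins (0.19, SE 0.0581), rose. PPP1CA did not pass (0.01). Over all 9 lists, 68 of 128 tested genes (53.1%) were called, 36 higher and 32 lower, against 27.4% of all tested genes. With a filter at a mean of 5 CPM, 67 genes of the lists were called, and 4088 of 11014 tested genes. The list genes left by that filter were not counted, so their share cannot be set beside that of all genes. The 27.4% also covers genes with few counts, and the shares were not matched for level. Protein levels were not measured.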

How the data were processed

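RNA-seq libraries of A498 cells, 3 PTPRZ_Si and 3 PTPRZ_nc, were grouped by their titles. Raw gene counts of read pairs, not normalized, were deposited by the authors. FeatureCounts 2.0.1, per the file headers, counted pairs over exons of Ensembl GRCh38 release 107, with no strand option although the kit is directional per the labels' protocols. The headers name HISAT alignments without a version, and the submitters' processing notes name hg38.

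Symbols came from a gene name table (42054 genes) or GENCODE 29 (16371), and coordinates and exon lengths for TPM from GENCODE 29. Low counts were removed with filterByExpr of edgeR 4.0.16 (R 4.3.3), libraries scaled by TMM, and a quasi-likelihood model (glmQLFit, glmQLFTest) compared the groups, with Benjamini-Hochberg adjustment. The SE is the size of the log2 fold change over the root of F. Tested genes held 99.82% of the counts, and the code was tested on simulated data. DESeq2 1.42.0 and limma-voom (limma 3.58.1) were alternatives.

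Members and lists were chosen with earlier results of these data known. Named genes are the 10 members, PTPRZ1, and from each list up to 3 called genes per direction by smallest p and the most abundant uncalled one, less any not reported here. Promoters are RefSeq windows, less any window of the members on chromosome 8. Depth was 13726908 to 21469746 counts per library, and intervals of counts cover counting error only.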

Additional observations from a re-analysis of the deposited data

How the results depend on the processing

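The count of all genes called, 4243, and of genes called over the other lists, 68, kept within 1.5 times of these values under every alternative, from 3182 to 4425 and from 51 to 68. The count of feedback genes called ranged from 2 to 5 when 1 library was left out, with 4 under DESeq2, 6 under a filter at a mean of 5 CPM, and 5 under every other scaling, filter, limma-voom and the replicate block. No feedback gene was called lower under any alternative, and DUSP6, never called, was slightly below 0 without PTPRZ_Si replicate 3 (-0.03) or PTPRZ_nc replicate 1 (-0.02). Scaling by total counts moved the median of all genes by less than 0.1. Same-numbered libraries of the groups did not deviate together (correlations of 0.0224, 0.0405 and 0.0129), although each correlated best with its own number. The replicate block gave 4101 genes called, and all feedback genes called without it were called with it. For single tested genes of the lists and the feedback genes, 1806 values under the alternatives kept the call, 100 lost it, 13 gained it and 0 of the called ones changed sign. At 63 to 155 counts per library, as for SPRY1, counting error of 8.75% in PTPRZ_Si and 10.7% in PTPRZ_nc limits what can be seen.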

Other observations

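Among the 10991 genes that average 5 CPM or more, the 3 whose level over the 6 libraries was most like that of DUSP6 were TBC1D22A, ZNF174 and IRAK4, with Pearson correlations of 0.97, 0.95 and 0.93 on the log2 scale. With 6 libraries and so many genes these values are a description.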
